A study of Arabidopsis thaliana with 3 samples.

Results

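The photoreceptor genes of Arabidopsis thaliana were taken by locus as 10 genes, out of 27444 nuclear protein-coding genes, and the binding sites of DIG1 and DIG2 at them were read from ChIP-seq peak lists. They comprised the 5 phytochrome genes PHYA (AT1G09570), PHYB (AT2G18790), PHYC (AT5G35840), PHYD (AT4G16250) and PHYE (AT4G18130). The cryptochrome genes CRY1 (AT4G08920) and CRY2 (AT1G04400), the phototropin genes PHOT1 (AT3G45780) and PHOT2 (AT5G58140), and the UV-B receptor gene UVR8 (AT5G63860) made up the rest. All 10 loci matched their symbols in the gene table. A summit, the point of highest signal that the peak caller reports, was assigned to a gene when it lay inside the gene or at most 3000 bp from either end. The gene table has no strand, so the ends are called the lower-coordinate and the higher-coordinate end.

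The series held 3 ChIP-seq samples, 1 each of GFP alone (the control), GFP-DIG1 and GFP-DIG2, in the accession Col-0. All were whole seedlings germinated and kept in darkness for 4 days and then given 10 uM dexamethasone, a glucocorticoid, for 6 h, and GFP was precipitated from all with the same antibody. The sites are therefore those of tagged proteins in dark-grown seedlings on the steroid, and the sources used here do not name the promoter that drove the fusions. A peak list was used for DIG1 (13459 summits in 11343 intervals) and for DIG2 (16562 summits in 13440 intervals), with 1 list per factor and none of the GFP sample. No statement below has a replicate check, the read depth behind each fold is unknown, and the folds of one list are not on a scale shared with the other. Peak lists hold no expression values, so the labelled tissue was not checked against marker genes. The title of the DIG1 sample names the locus AT3G45810 and that of the DIG2 sample AT5G50360.

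Plants read light through proteins that carry a light-absorbing group or, in UVR8, use their own tryptophans. Phytochromes respond to red and far-red light, cryptochromes and phototropins to blue light and UVR8 to UV-B. Phytochrome A is the abundant phytochrome of dark-grown seedlings and is degraded in light, whereas phytochrome B is stable and is the main red-light receptor of green plants. Phytochromes, cryptochromes and UVR8 act on PIF transcription factors or on the COP1 and SPA ubiquitin ligase, and phototropins are kinases at the plasma membrane that steer growth towards light.

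Summits of both factors lay at 6 of 10 genes, PHYA, PHYB, PHYD, CRY1, CRY2 and PHOT1, where 53.3% of all nuclear protein-coding genes had both. PHOT2 had a DIG1 summit alone and UVR8 a DIG2 summit alone. PHYC and PHYE, 2 of 10, had neither within the distance used, where 38.7% of all genes and 32.6% of genes at least as long as the shortest of the 10 had neither. DIG1 thus had a summit at 7 of 10 genes, where the share of all genes was 54.9%. DIG2 had a summit at 7 of 10 as well, against 59.7% of all genes. The photoreceptor genes are long, with a median of 4650 bp against 2078 bp for all genes. Among the 6063 genes of at least the shortest one's length, 60.3% had a DIG1 and 65.6% a DIG2 summit. At this width of flank the counts of photoreceptor genes were close to those shares, and nothing is read from them.

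**Figure D1:**
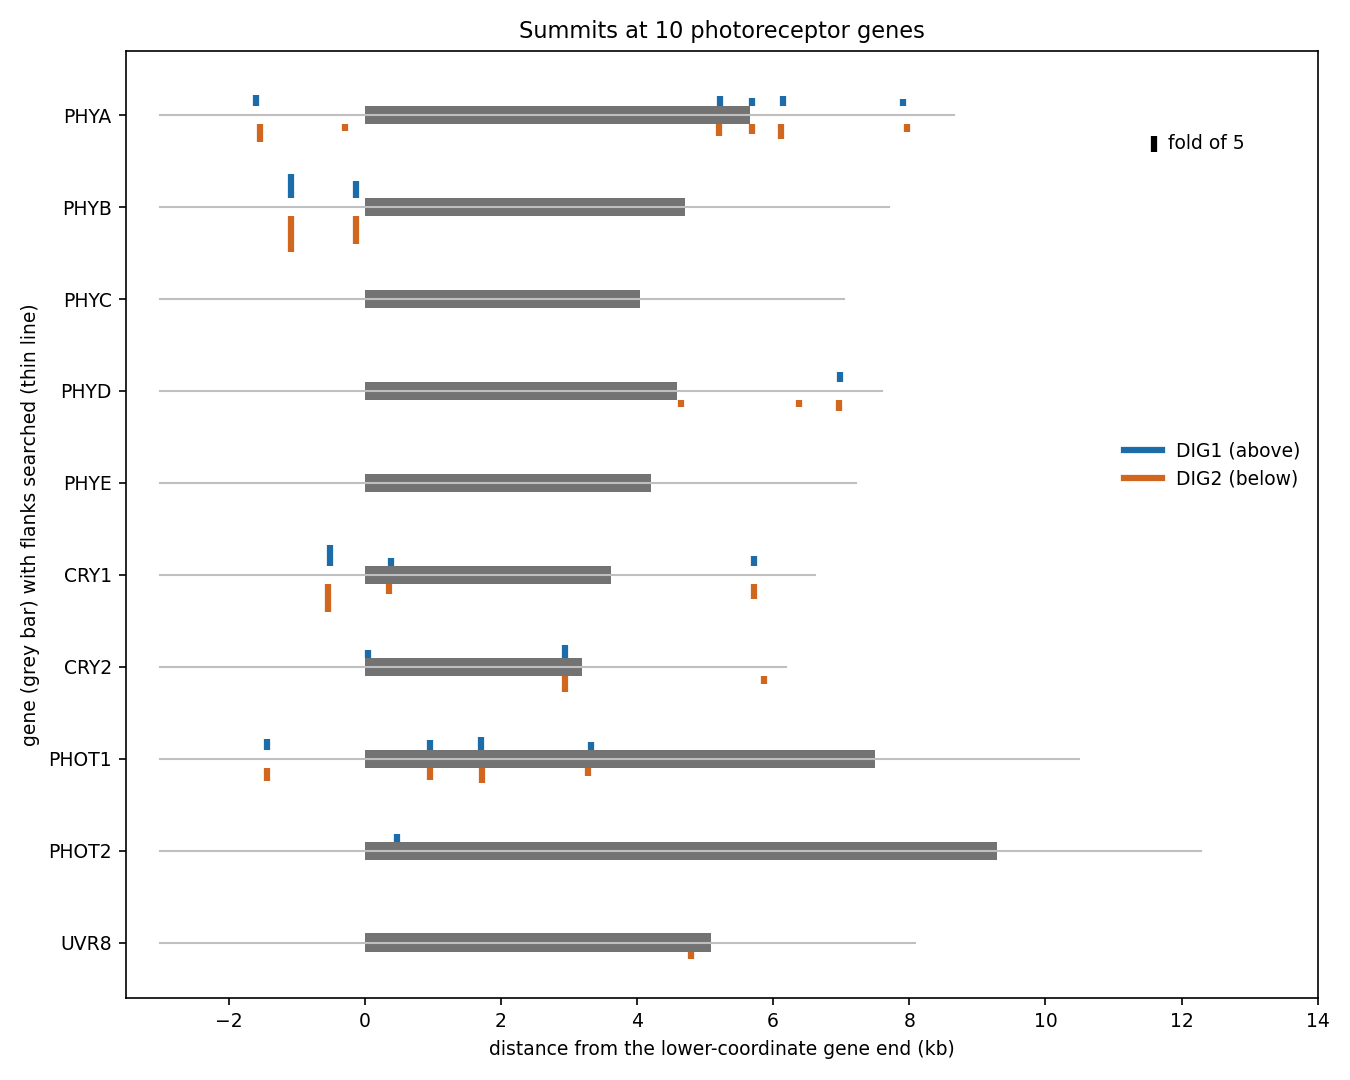
Position of every summit at the 10 photoreceptor genes, as distance in kb from the lower-coordinate end of the gene. Grey bars are the genes, thin lines the 3 kb flanks, and the height of each coloured bar is the authors' fold enrichment (DIG1 above the gene, DIG2 below; folds are to be compared within a list only). The tallest bars stand outside the lower-coordinate ends of PHYB and CRY1, and PHOT1 is the only one of the 10 with 3 summits of each list inside the gene.

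The 10 genes held 18 DIG1 summits in 15 intervals and 21 DIG2 summits in 17 intervals. In the DIG1 list 8 of these lay inside a photoreceptor gene and 10 in the flanks, and in the DIG2 list 7 lay inside and 14 in the flanks. For 6 of the DIG1 and 9 of the DIG2 summits another protein-coding gene was nearer. The authors' fold enrichment over modelled background ranged from 2.10 to 7.33 at the DIG1 summits, with a median of 3.09, against a median of 3.19 over the whole DIG1 list. At the DIG2 summits it ranged from 2.06 to 11.1, with a median of 3.79, against 3.80 over the whole DIG2 list. The photoreceptor summits were thus spread around the middle of each list, with both PHYB summits and the strongest CRY1 summit well above it.

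**Figure D2:**
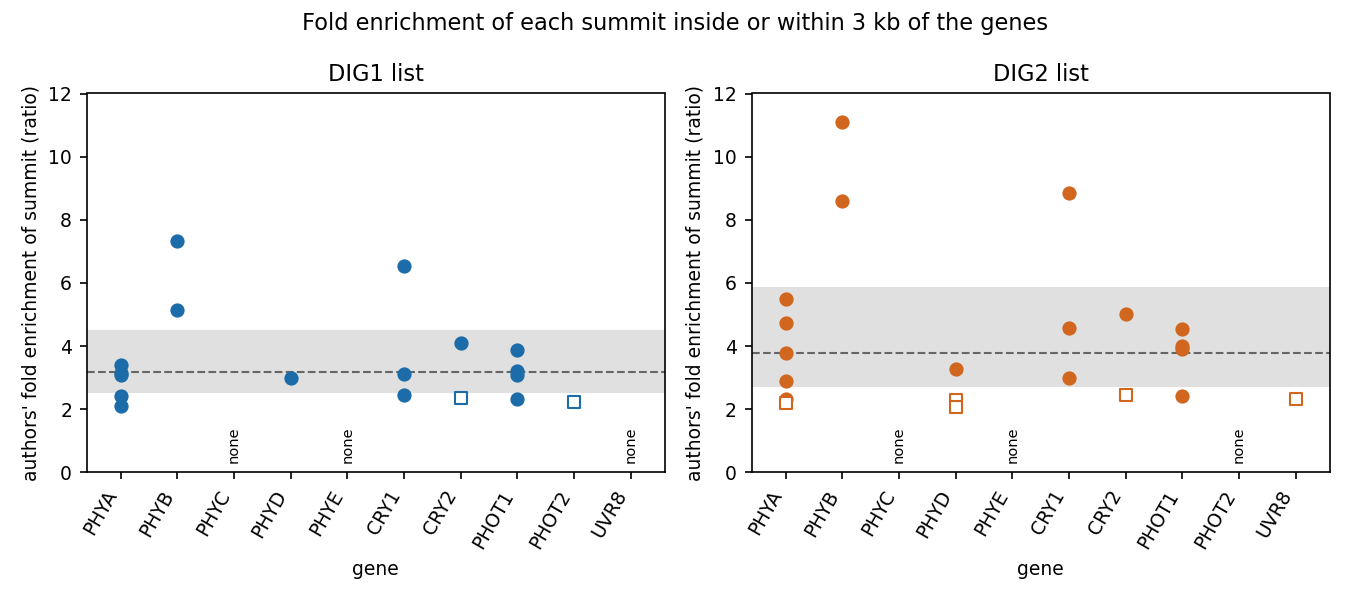
Authors' fold enrichment (ratio) of each summit inside or within 3 kb of each gene, by list. Filled circles are summits with a summit of the other list within 100 bp, open squares those without; the dashed line is the median and the grey band the interquartile range of all summits of the list. PHYB and the strongest CRY1 summit lie above the band in both panels, and all open squares lie at a fold of 2.45 or below.

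PHYB had the strongest peak of the 10 genes in both lists, although its stronger summit was nearer to another gene. In the DIG1 list the interval on chromosome 2 from 8138273 to 8139959 (TAIR10) held 2 summits. The one with a fold of 7.33 lay 1083 bp outside the lower-coordinate end of PHYB, and the other, with a fold of 5.15, lay 123 bp outside it. The interval ranked 946 of 11343 in its list by −log10 p, within the strongest 8.34%. DIG2 had an interval from 8138268 to 8139968, with a fold of 11.1 at 1078 bp and of 8.59 at 121 bp outside the same end. It ranked 785 of 13440, within the strongest 5.84%. The DIG1 and DIG2 summits were 5 bp apart at the outer site and 2 bp apart at the inner one. The outer site was nearer to the neighbouring gene AT2G18780, at 531 bp for DIG1 and 536 bp for DIG2, whereas the inner site was 1491 bp or more from it. The stronger of the paired sites is thus the one closer to another gene, and neither list had a summit inside PHYB or in the flank of its other end.

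PHYA had the most sites of the 10 genes, but most were nearer to its neighbours. DIG1 had 5 summits and DIG2 had 6, where 2.57% and 4.42% of genes at least as long as the shortest photoreceptor gene had 5 or more. The number was noticed after the values were seen. PHYA is 5660 bp long and that set of genes starts at 3185 bp, so the shares are not matched to its length. Around the higher-coordinate end, an interval with 3 summits in each list spanned 3100062 to 3101599 on chromosome 1 for DIG1 and 3100065 to 3101604 for DIG2. Its first summit lay inside PHYA, 445 bp from the end for DIG1 (fold 3.07) and 451 bp for DIG2 (fold 3.79). The second lay just outside, at 26 bp (fold 2.42) and 27 bp (fold 2.90). The outermost, at 484 bp (fold 3.16) and 461 bp (fold 4.73), was already inside the next gene, AT1G09575. The inner pair were the PHYA sites to which no other gene was nearer.

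The strongest PHYA summit in each list lay at the other end, 1598 bp outside the gene for DIG1 (fold 3.41) and 1532 bp for DIG2 (fold 5.50). It was 82 bp and 16 bp from GLP5, the gene of a germin-like protein that lies beside PHYA. DIG2 alone had a weak summit 296 bp outside this end, inside GLP5, with a fold of 2.21. A further weak site 2252 bp (DIG1, fold 2.10) and 2300 bp (DIG2, fold 2.31) outside the higher-coordinate end lay inside AT1G09575.

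PHYD, the closest relative of PHYB among the phytochromes, had no DIG1 summit near its own ends. Its one DIG1 summit had a fold of 2.99 and lay 2382 bp beyond the higher-coordinate end, 28 bp from NRPB9B, a gene for a subunit of RNA polymerase II. DIG2 had a summit 5 bp from it, with a fold of 3.26. DIG2 also had a summit 57 bp outside PHYD with a fold of 2.29, and one with a fold of 2.06 inside the neighbouring AT4G16260. The −log10 p values of this pair were 16.1 and 16.3, where the lowest value in the DIG2 list was 16.0. Both were therefore among the weakest entries of that list.

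PHYC and PHYE had no summit of either list within 3000 bp. The nearest summits to PHYC were 15126 bp away for DIG1 and 15143 bp for DIG2. For PHYE the result turned on the width of the flank. A summit on chromosome 4 lay 3167 bp from the gene for DIG1 (fold 13.0, rank 86) and 3172 bp from it for DIG2 (fold 16.7, rank 90). The DIG1 interval spanned 10049198 to 10049874 and the DIG2 interval 10049170 to 10049901. Both were stronger within their lists than any peak counted for the 10 genes. The gene SSP4b, which encodes a small phosphatase, lay between PHYE and this site, 75 bp from the DIG1 and 80 bp from the DIG2 summit. The farthest summit that was counted, at CRY2, lay 2681 bp from its gene, with a fold of 2.45.

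CRY1, the main cryptochrome of blue-light control of seedling growth, held the second strongest site by fold in both lists. Its DIG1 summit had a fold of 6.53 and lay 515 bp outside the lower-coordinate end, in the interval from 5722929 to 5723477 on chromosome 4. The DIG2 summit was 18 bp away, at 533 bp, with a fold of 8.84, in the interval from 5722893 to 5723402. These intervals ranked 1545 and 1863, within the strongest 13.6% and 13.9% of their lists. The nearest other protein-coding gene was 6033 bp from the DIG1 summit and 6051 bp from the DIG2 summit, so CRY1 was the nearest protein-coding gene by a wide margin. A weaker site lay inside CRY1, 387 bp (DIG1, fold 2.46) and 358 bp (DIG2, fold 3.0) from the same end. Another, with folds of 3.10 and 4.56, lay 2108 and 2097 bp beyond the other end, inside APRL6, a gene of the adenosine phosphosulfate reductase-like family.

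CRY2, the cryptochrome that is degraded in blue light and promotes flowering, had its shared site inside the gene. The DIG1 summit lay 239 bp from the higher-coordinate end with a fold of 4.09, and the DIG2 summit lay 236 bp from it with a fold of 5.01. Their intervals spanned 1188116 to 1189255 and 1188177 to 1188892 on chromosome 1 and ranked 3045 and 3807. The other CRY2 sites were weak and not shared. DIG1 alone had a summit 42 bp inside the lower-coordinate end (fold 2.36), and DIG2 alone had one 2681 bp beyond the higher-coordinate end (fold 2.45), inside the malate dehydrogenase gene c-NAD-MDH1. The 2 cryptochrome genes thus differed in where their strongest site lay, outside the gene for CRY1 and inside it for CRY2.

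PHOT1, the phototropin of high sensitivity to blue light, had 4 sites, each found in both lists. The first lay 1430 bp (DIG1, fold 3.21) and 1439 bp (DIG2, fold 4.01) outside the lower-coordinate end. The other 3 lay inside the gene, as separate intervals. They were 953, 1713 and 3322 bp from the lower-coordinate end in the DIG1 list, with folds of 3.08, 3.89 and 2.31. In the DIG2 list they were 960, 1720 and 3283 bp from it, with folds of 3.90, 4.55 and 2.43. The innermost site was 44.4% of the gene's length from that end for DIG1 and 43.8% for DIG2, close to the middle of the gene. Among genes at least as long as the shortest photoreceptor gene, 0.973% had 3 or more DIG1 summits inside and 1.43% had 3 or more DIG2 summits. This count was chosen after the values were seen. PHOT1 is 7490 bp long and that set of genes starts at 3185 bp, so the shares are not matched to its length. No other protein-coding gene was nearer to any of the PHOT1 sites. The strongest of them ranked 4108 in the DIG1 and 5063 in the DIG2 list, so all were of middling or low strength.

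Whether the locus in the title of the DIG1 sample, AT3G45810, is the one that encodes DIG1 was not settled from the sources, so the values at it bear on that locus alone. AT3G45810, which the gene table gives as RbohJ, a respiratory burst oxidase homologue, lies 8515 bp beyond PHOT1. No summit of either list lay within 3000 bp of it, the nearest being 12468 bp (DIG1) and 12472 bp (DIG2) away. AT5G50360, named in the title of the DIG2 sample, had 1 DIG1 summit with a fold of 7.04, 433 bp from the gene. It had 2 DIG2 summits, 1 of them inside the gene, with a highest fold of 9.71.

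PHOT2, the phototropin that also drives the avoidance of strong light by chloroplasts, had a single DIG1 summit 480 bp inside its lower-coordinate end. Its fold was 2.22 and its interval, from 23523766 to 23524518 on chromosome 5, ranked 10154 of 11343. The nearest DIG2 summit was 22475 bp from PHOT2. UVR8 had a single DIG2 summit, 285 bp inside its higher-coordinate end, with a fold of 2.31 in the interval from 25558666 to 25559545 on chromosome 5, at rank 12348 of 13440. The nearest DIG1 summit was 18293 bp from UVR8. Both summits were thus in the weak tail of their lists, and for both genes the other list had nothing nearby.

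The photoreceptor summits were shared between the lists about as often as summits in general, and sharing is not read as particular to these genes. Of the 18 DIG1 summits at photoreceptor genes, 16 had a DIG2 summit within 100 bp, where 94.7% of all DIG1 summits did. Of the 21 DIG2 summits, 16 had a DIG1 summit within 100 bp, where 77.0% of all DIG2 summits did. The 16 pairs were 1 to 66 bp apart, with a median of 8 bp. The 2 unshared DIG1 summits had folds of at most 2.36 and the 5 unshared DIG2 summits of at most 2.45. Unshared summits were weak over the whole lists too, with median folds of 2.36 for DIG1 and 2.47 for DIG2. Some shared summits were as weak, down to 2.10 for DIG1 and 2.31 for DIG2. With −log10 p of at least 30 in both lists, 12 DIG1 and 14 DIG2 summits were left and 12 of each were shared, where 96.2% of all DIG1 and 69.6% of all DIG2 summits past that value were. Both precipitations used the same antibody, and the control that each list was called against is not stated in the sources, so signal common to any GFP precipitation was not told apart from binding of the factors.

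Within each list the genes could be put in order of their strongest fold, although without replicates it cannot be said which neighbours in the order differ. For DIG1 the order was PHYB (7.33), CRY1 (6.53), CRY2 (4.09), PHOT1 (3.89), PHYA (3.41), PHYD (2.99) and PHOT2 (2.22). For DIG2 it was PHYB (11.1), CRY1 (8.84), PHYA (5.50), CRY2 (5.01), PHOT1 (4.55), PHYD (3.26) and UVR8 (2.31). PHYB and CRY1 led both orders, but the order depended on summits nearer to other genes. With only the summits to which no other protein-coding gene was nearer, a restriction chosen after seeing the data, CRY1 (6.53 for DIG1 and 8.84 for DIG2) stood ahead of PHYB (5.15 and 8.59). PHYA (3.07 and 3.79) then stood below CRY2 (4.09 and 5.01) and PHOT1 (3.89 and 4.55) in both lists.

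Most of the photoreceptor genes that had a summit had one close to the gene or inside it. Within 500 bp, 6 of 10 had a DIG1 summit, where 31.0% of all genes did, and 7 of 10 had a DIG2 summit, where 35.1% did. Among genes at least as long as the shortest photoreceptor gene these shares were 37.9% and 42.7%. Within 1000 bp the counts were again 6 and 7, where the shares were 37.7% and 42.3% of all genes and 43.9% and 49.4% of the long genes. Within 5000 bp both counts were 8, where the shares were 67.3% and 71.7% of all genes and 71.7% and 76.5% of the long genes. Inside the gene itself, 5 of 10 had a DIG1 summit, where 11.9% of all genes and 17.2% of the long genes did. For DIG2 it was 5 of 10, where the shares were 14.2% and 20.3%. Lengths above that of the shortest photoreceptor gene were not matched, and a longer gene has more room for a summit. Differences between these counts and shares were not tested, since the genes were chosen with results of these lists known.

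**Figure D3:**
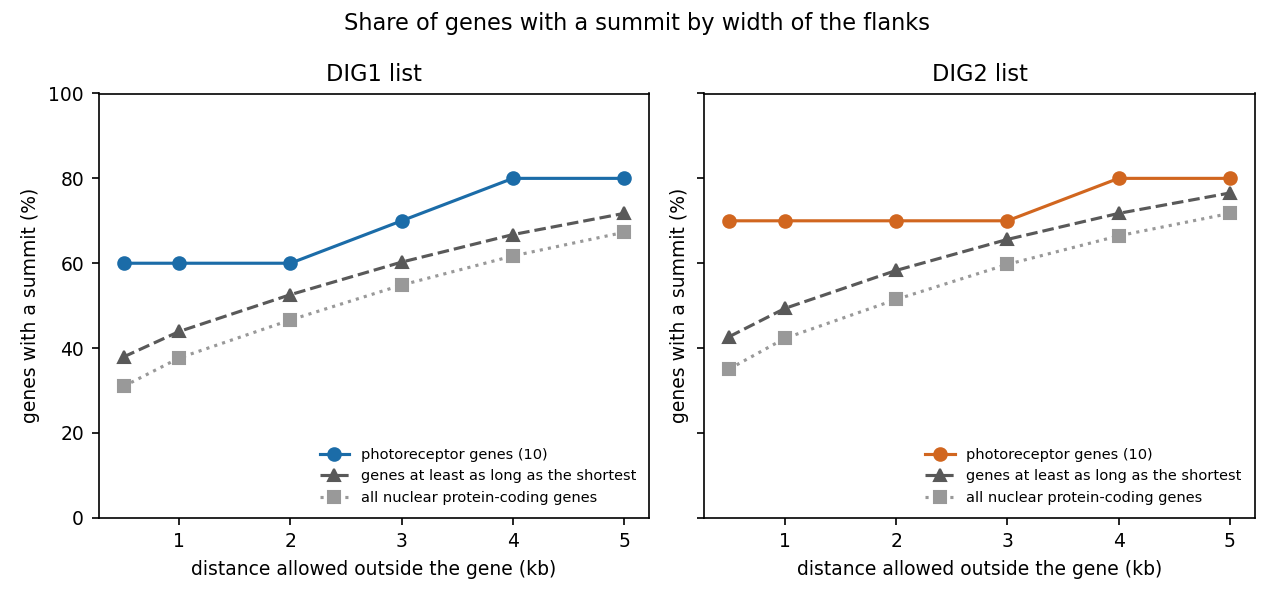
Percentage of genes with a summit inside the gene or within the distance on the x axis (kb), for the 10 photoreceptor genes (coloured), genes at least as long as the shortest of them (triangles) and all nuclear protein-coding genes (squares). From 500 to 2000 bp the DIG1 line stays at 6 of 10 genes and the DIG2 line at 7 of 10, while the grey lines climb towards them.

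The partners of the photoreceptors were read in the same way, from 40 genes in 8 lists. Of these 32 (80.0%) had a DIG1 and 33 (82.5%) a DIG2 summit within 3000 bp, where the shares of all genes were 54.9% and 59.7%. Gene length was not matched in this comparison. The lists were chosen with results of these data known, and no test was made. Each fold below is the highest within 3000 bp of the gene. Whether another gene was nearer to that summit was not checked for the partners. All 6 PIF genes that were read had summits of both, where 53.3% of all genes did. PIF factors are bHLH proteins that phytochromes bind. PIF8 was listed too but was dropped because its symbol was not matched, so its summits were not read. PIF3 had a highest fold of 8.09 for DIG1 and 14.1 for DIG2, PIF6 had 8.10 and 11.7, and PIF7 had 9.34 and 10.9. The summits lay 205 and 224 bp from PIF3, 439 bp from PIF6 in both lists, and 1278 and 1267 bp from PIF7. The lowest of the 6 was 5.79 for DIG1, 1546 bp from PIF1, and 8.36 for DIG2, 1969 bp from PIF4. Among the photoreceptor genes only PHYB and CRY1 exceeded these values.

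Among the phototropin partners all 5 genes that were read had summits of both factors, where 53.3% of all genes did. RPT2, which encodes a relative of NPH3 induced by light, had folds of 8.63 and 10.8, and PKS1, whose product binds phytochrome and phototropin, had 8.38 and 10.2. The RPT2 summits lay 1006 and 984 bp from the gene, and the PKS1 summits 1321 and 1336 bp. Of 9 genes for the COP, DET and SPA repressors of light responses, 5 had summits of both (55.6%, where 53.3% of all genes did), led by SPA1 (folds 5.70 and 8.52) and SPA3 (5.12 and 7.66). The SPA1 summits lay 2119 bp (DIG1) and 2117 bp (DIG2) from the gene, and the SPA3 summits 2537 and 2535 bp. SPA2, DET1, DDB1A and CUL4 had no summit. Of 4 genes for factors that COP1 targets for degradation, HFR1 (7.23 and 11.4) and LAF1 (5.44 and 7.04) had the highest folds. The LAF1 summits lay 1997 and 1991 bp from the gene, and HYH had no summit.

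Phytochrome carries a bilin chromophore made by the products of HY1 and HY2. HY2 had no summit in either list, and HY1 had only a DIG2 summit, with a fold of 2.84, 2971 bp from the gene. In the list of 9 genes for chromophore synthesis and phytochrome partners, 7 had a DIG1 and 8 a DIG2 summit. The shares of all genes were 54.9% and 59.7%, and no test was made. HMR, needed for phytochrome signalling and plastid transcription, had folds of 6.33 and 9.34, at 1961 and 1954 bp from the gene. FHY3, which encodes an activator of the phytochrome A import genes FHY1 and FHL, had 4.28 and 5.92. These FHY3 summits lay 2980 and 2932 bp from the gene, near the limit of the flank. FHL, itself one of those import genes, had 5.33 and 5.42. Of the 4 other blue-light receptors, FKF1 (3.15 and 5.17) and CRY3 (2.71 and 3.24) had the highest folds and LKP2 had no summit. CIB1, a bHLH partner of CRY2, had 2.83 and 4.99. RUP1 and RUP2, whose products return UVR8 to its dark state, had DIG1 folds of 2.68 and 3.64 and DIG2 folds of 4.13 and 4.62, where UVR8 had only a DIG2 summit, with a fold of 2.31.

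**Figure D4:**
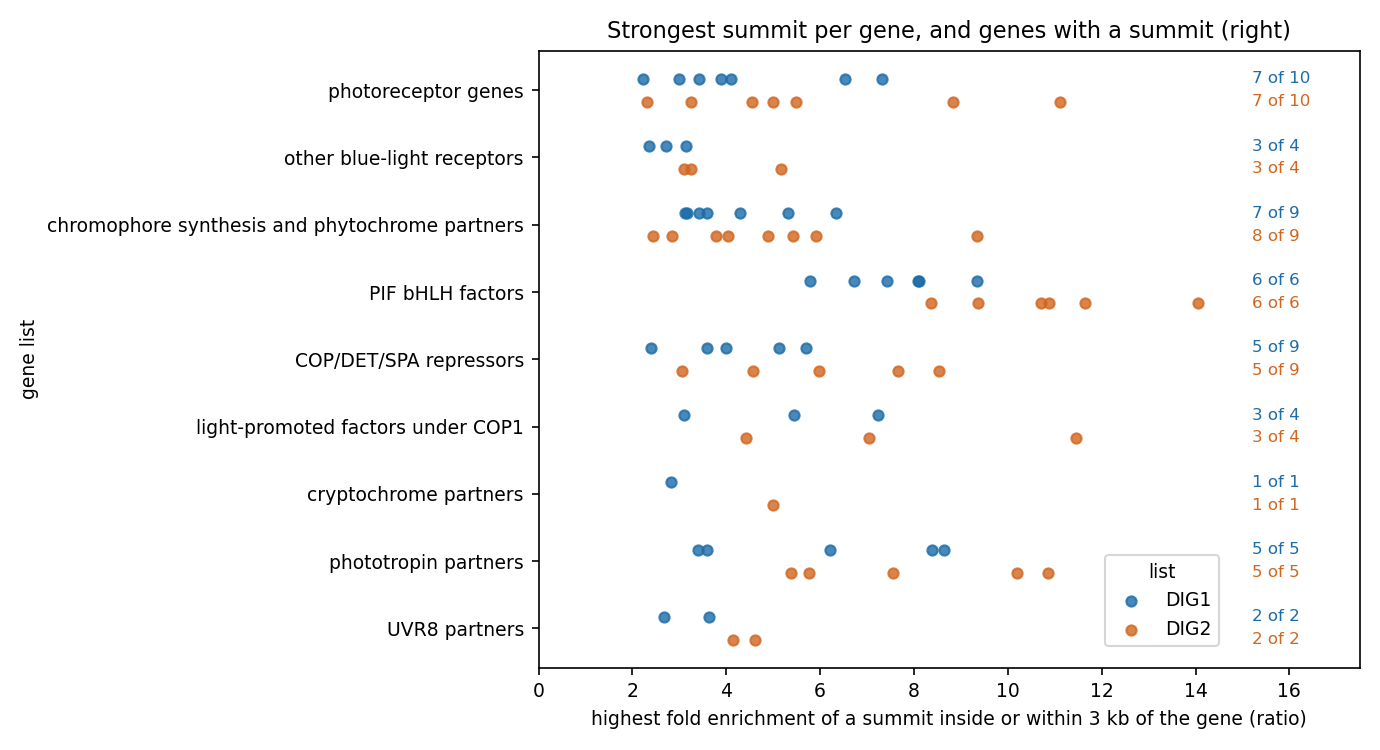
Highest fold enrichment (ratio) of a summit inside or within 3 kb of each gene, one point per gene with a summit, for the photoreceptor genes and 8 lists of their partners; the counts at the right are genes with a summit out of genes in the list. Folds are to be compared within a list of summits (within a colour). The 6 PIF genes all lie at 5.79 or above for DIG1, and 5 of the 7 photoreceptor genes with a DIG1 summit lie below that value.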

How the data were processed

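ChIP-seq peak lists of GFP-DIG1 and GFP-DIG2 were analysed, 1 list each. Per the submitters' processing notes, Bowtie 0.12.7, the TAIR10 build and MACS2 (version not given in the sources used here) were used. The deposited lists have the narrowPeak layout, and from them the authors' fold enrichment (a ratio over the modelled background) and the authors' −log10 p were used, within their own list only. The sources used here do not state the peak caller's control, any pooling of replicates or the read depth. Summits are counted from 1. Intervals were ranked by the −log10 p of their strongest summit.

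Genes came from a RefSeq table of assembly TAIR10.1, which has no strand or exons. None of its coordinates is printed. When summits were shifted by up to 2000 bp in steps of 50 bp, the fewest lay inside genes at a shift of 0 bp in both lists. Of 46 partner genes listed by locus, 6 whose symbol the table does not hold for the locus were dropped. They were PCH1, PIF8, BIC1, BIC2, PPK1 and NCH1. Named partners are, per gene list, the 2 with the highest fold for DIG1 and the 2 with the highest for DIG2, and, where 4 or fewer lack a summit, those. The 10 genes, the lists and the widths were chosen with earlier results of these data known. No sequences were used here, so the planned motif description was not made. No test was made, as each factor has 1 list. The scripts ran in Python 3.11.15 with pandas 2.3.3, and the assignment of summits was tested on simulated data. Alternatives covered flank width, a −log10 p minimum of 30, list length, summits per interval, assignment to the nearest gene, the rule for sharing and ranking by fold.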

Additional observations from a re-analysis of the deposited data

How the results depend on the processing

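Of 52 values recomputed under an alternative, 48 stayed close to the reported value (within 1.5 times) and 4 did not. Some of the 48 had little or no room to move. The cut to the length of the shorter list leaves the DIG1 list as it was, and a count of 7 of 10 genes cannot rise by 1.5 times. With flanks of 500 bp the photoreceptor genes held 11 DIG1 and 12 DIG2 summits in place of 18 and 21, and with 1000 bp 13 DIG2 summits. Counting a summit only where no other protein-coding gene was nearer left 12 DIG2 summits. These settings keep fewer summits by construction. The number of photoreceptor genes with a summit ranged from 6 to 8 for each factor over the alternatives run. The number of shared summits ranged from 12 to 16 for DIG1 and from 12 to 17 for DIG2. No paired analysis was possible because each factor has 1 list. No list could be left out for the same reason. Read depth is unknown, so a gene without a summit had none past the authors' threshold, which does not show that it was unbound.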

Other observations

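The deposited intervals carry running numbers that increase along the genome, and the lists do not hold every number. In the DIG1 list the numbers ran from 2 to 18933 and 40.1% of them were absent. In the DIG2 list they ran from 2 to 18299 and 26.5% were absent. Of the 7 summits at photoreceptor genes without a summit of the other list within 100 bp, 6 lay outside every interval of the other list, and between the neighbouring intervals there at least 1 number was absent for all 6. Over the whole lists the same held for 83.7% of such unshared DIG1 summits and 96.6% of such unshared DIG2 summits, while 26.0% of all gaps between neighbouring DIG2 intervals and 38.9% of those between DIG1 intervals skipped a number. The 6 cases are thus close to unshared summits in general. The shares of gaps count each gap once whatever its length, whereas a long gap has more room for a summit. The shares of summits and of gaps are therefore not a like comparison. The tightest case was the DIG2 summit inside GLP5 beside PHYA, where the flanking DIG1 intervals had the numbers 592 and 594 and lay 937 bp before and 5198 bp after it. At PHOT2 and UVR8 the gap spanned 5 numbers each, and both gaps were long. The neighbouring intervals lay 22656 bp before and 47870 bp after the PHOT2 summit, and 22034 bp before and 23180 bp after the UVR8 summit. The lowest −log10 p was 16.0 in each list. What the absent numbers held is not known here. The seventh summit, at PHYD, lay inside a DIG1 interval whose only listed summit was 599 bp away. The name of that DIG1 summit ends in the letter b, and no summit with the letter a is listed for the interval. Whether DIG1 had a further summit there is not known here. Such letters were not particular to PHYD. The only listed summit of the UVR8 DIG2 interval also ends in b, and that of the shared CRY2 DIG1 interval ends in a.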
